A study of Mus musculus with 6 samples.

Results

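The mitochondrial ribosomal protein genes are the nuclear genes for the proteins of the ribosome inside mitochondria. They were taken as the protein-coding genes whose GENCODE M21 symbol starts with Mrpl (large subunit) or Mrps (small subunit) followed by a number. This gave 78 of the 54532 genes in the deposited table, 49 named for the large and 29 for the small subunit. The study asked how PPP6R3, a regulatory subunit of protein phosphatase 6, acts in the testis while spermatogonia differentiate. RNA came from whole testis of Ppp6r3 cKO mice on postnatal day 9 (3 libraries) and of wild-type mice of the same age (3 libraries). The cKO carries a conditional knockout of Ppp6r3. Its Cre line, the deleted exons, the strain and the number of animals behind a library are not given in the sources used here. The p-values therefore measure the spread between libraries, which may be technical.

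Mitochondrial ribosomes translate only the few proteins encoded by mitochondrial DNA, all of them subunits of the respiratory chain and of ATP synthase. Their RNA comes from the mitochondrial genome, while every protein is encoded in the nucleus, made in the cytosol and imported. Many of these proteins descend from bacterial ribosomal proteins and others were added during the evolution of mitochondria. Nuclear respiratory factor 1 (NRF1) and the ETS factor GABP are textbook regulators of nuclear genes for mitochondrial proteins.

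RefSeq promoter windows on GRCm38.p6 were found for 69 of the 78 members, with 75 windows because some genes have more than 1 start. The 250 bases before each start were searched on both strands for GCGCANGCGC (the NRF1 motif, with N for any base), CCGGAAG (ETS), AAGATGGC (YY1) and GGGGCGGGG (SP1). The NRF1 motif was found in 10 of 75 member windows (13.3%), against 1228 of all 32851 windows (3.74%). Of these, 9 were among the 48 large subunit windows (18.8%) and 1 among the 27 small subunit windows (3.7%). The ETS motif was found in 18 member windows (24.0%), against 6.91% of all windows. The YY1 motif was found in 4 (5.33%, against 1.56%) and the SP1 motif in 8 of the 48 large subunit windows (16.7%) and 7 of the 27 small subunit windows (25.9%), against 10.4% of all windows. A match describes the letters of the window and is not a binding site. The sites of 7 genes named in the results that hold an NRF1 match follow, each as 30 bases read 5′ to 3′ on the gene's strand with the match in capitals.
Mrpl44, chr1:79775973-79776002, plus strand: agaagcacttGCGCACGCGCagtacactag
Mrpl57, chr14:57826172-57826201, plus strand: tttgaatcctGCGCAGGCGCagaaggcgtc
Mrpl12, chr11:120484546-120484575, plus strand: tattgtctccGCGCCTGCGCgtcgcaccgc
Mrpl32, chr13:14613105-14613134, minus strand: tttgacccttGCGCATGCGCaagaggggcc
Mrps21, chr3:95871586-95871615, minus strand: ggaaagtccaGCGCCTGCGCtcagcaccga
Mrpl17, chr7:105811117-105811146, minus strand: aggctctgatGCGCACGCGCaaacgcggta
Mrpl30, chr1:37890384-37890413, plus strand: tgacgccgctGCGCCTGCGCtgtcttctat

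Mrpl44 and Mrpl57 fell in the cKO testes and the other 5 genes did not pass the test. For comparison, 100 upstream bases are shown for the other members that fell and have a window, with an SP1 match in capitals in Mrps6 and no match in Mrpl42 or Mrps17.
Mrps6, chr16:92058170-92058269, plus strand: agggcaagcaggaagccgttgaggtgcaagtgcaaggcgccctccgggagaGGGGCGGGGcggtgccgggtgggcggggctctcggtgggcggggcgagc
Mrpl42, chr10:95501950-95502049, minus strand: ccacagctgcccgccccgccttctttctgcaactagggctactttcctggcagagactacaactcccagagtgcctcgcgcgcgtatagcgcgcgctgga
Mrps17, chr5:129715397-129715496, plus strand: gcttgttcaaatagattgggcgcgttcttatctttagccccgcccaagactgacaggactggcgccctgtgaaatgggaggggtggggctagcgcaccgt

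Of the 10 tested members with an NRF1 match 2 fell, with a median log2 fold change of -0.08, and of the 58 without one 3 fell, with a median of -0.08. Of the 17 with an ETS match none fell, with a median of -0.07, and of the 51 without one 5 fell, with a median of -0.08. No member on either side of these splits rose, in the same limma fit at the same threshold. Over all genes tested 7.86% fell and 7.67% rose, and the counts were not tested against each other. Mrpl4, the remaining member that fell, is one of the 9 members with no window in the table.

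The deposited expression unit is FPKM, the fragments of a gene scaled to its exon length and to a size of the library. That size was not the sum of the fragments (16391347 against 16503966 in cKO replicate 1). Multiplied by exon length the FPKM values were whole multiples of 1 step per library. The fragments recovered in this way summed to 15798467 to 16550839 per library over all genes, and each member tested had 208 to 1906 of them in a library. Intervals of counting error were not computed, since limma takes its error from the spread between libraries. Genes with at least 10 fragments in at least 3 libraries were tested with limma on log2(FPKM + 0.1), and fold changes are on that scale, cKO over wild type. A gene passed when its p, with Benjamini-Hochberg adjustment over the 17658 tested genes, was below 0.05. Ppp6r3, the targeted gene, had 15.8, 15.3 and 14.9 FPKM in the cKO testes, against 20.8 to 21.3 FPKM in the 3 wild-type libraries. It fell, with a log2 fold change of -0.45 (SE 0.042, limma adjusted p = 0.000695), and the groups did not overlap. Markers of other cells moved with genotype. All 6 meiotic entry markers fell, at a summed 106.0 to 111.2 FPKM in cKO and 233.7 to 235.5 FPKM in wild-type libraries, and all 4 endothelial and all 3 macrophage markers rose. In whole testis, fewer cells of a type and less RNA per cell cannot be told apart.

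Most mitochondrial ribosomal protein genes lay close to their wild-type level in the cKO testes. Of the 77 members tested, 6 fell, 0 rose and 71 did not pass, while 7.86% of all genes tested fell and 7.67% rose (15.5% called in either direction). The share that fell, 7.79%, was near that of all genes. The members that fell were Mrpl4, Mrpl42, Mrpl44 and Mrpl57 of the large subunit and Mrps6 and Mrps17 of the small subunit, at 0.808 to 0.901 times wild type. Mrpl53 was listed at 0 in every library and was not tested. Of its exon bases 88.0% also lie in the same-strand gene Gm42688.

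**Figure D1:**
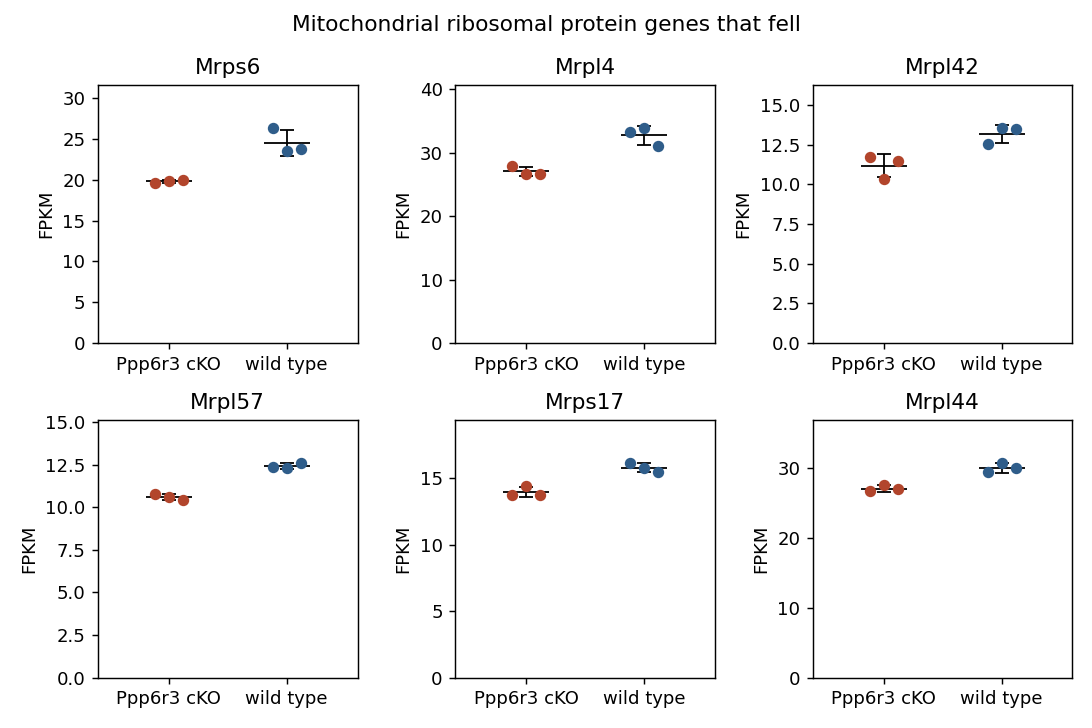
FPKM of the 6 mitochondrial ribosomal protein genes that fell, with 1 point per library, Ppp6r3 cKO left of wild type, and bars for the mean ± SD of 3 libraries. In each panel all 3 cKO points lie below all 3 wild-type points.

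Mrps6, a small subunit protein of the platform with a bacterial counterpart (ENSMUSG00000039680, chr16:92058270-92112227, plus strand), had 19.6, 19.8 and 19.97 FPKM in the cKO testes, against 26.4, 23.5 and 23.8 FPKM in the wild-type testes. The groups did not overlap, and the cKO libraries spread less, at 19.8 ± 0.174 FPKM, than the wild-type libraries, at 24.6 ± 1.58 FPKM (SD, n = 3 each). It changed most of all members, with a log2 fold change of -0.31 (SE 0.0519, limma adjusted p = 0.00787). After a correction for GC content and length it no longer did. Its log2 fold change was then -0.23 (limma adjusted p = 0.0151), a smaller fall than in Mrpl4 (-0.30) and Mrpl48 (-0.28). Of the exon bases of Mrps6 19.9% are shared with the same-strand genes Gm49711 and Slc5a3, so some of its reads may be theirs.

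Mrpl4, whose bacterial counterpart lines part of the exit tunnel for the growing protein (ENSMUSG00000003299, chr9:21002738-21008839, plus strand), had 27.9, 26.6 and 26.6 FPKM in the cKO testes, against 33.3, 33.9 and 31.1 FPKM in the wild-type testes. All cKO libraries were below all wild-type libraries, and the log2 fold change was -0.28 (SE 0.0467, limma adjusted p = 0.00802). Mrpl4 and Mrps6 were the only members that passed under every alternative tried, including a threshold of 0.01 on the adjusted p.

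Mrpl57, a small mitochondria-specific protein (ENSMUSG00000021967, chr14:57826234-57829296, plus strand), had 10.8, 10.6 and 10.4 FPKM in the cKO testes, against 12.3, 12.3 and 12.6 FPKM in the wild-type testes. Both groups were narrow, at 10.6 ± 0.178 FPKM in cKO and 12.4 ± 0.171 FPKM in wild type. The log2 fold change was -0.23 (SE 0.0432, limma adjusted p = 0.0119). Without wild type replicate 3 its limma adjusted p was 0.0529. After a correction for GC content and length its log2 fold change was -0.15 (limma adjusted p = 0.049). With the replicate number as a block besides that correction, the limma adjusted p was 0.0872.

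Mrpl42, which has no bacterial counterpart (ENSMUSG00000062981, chr10:95480805-95501940, minus strand), had 11.7, 10.4 and 11.5 FPKM in the cKO testes, against 12.5, 13.6 and 13.5 FPKM in the wild-type testes. The highest cKO and the lowest wild-type library lay close together, and the log2 fold change was -0.24 (SE 0.0613, limma adjusted p = 0.0356). Without a library its limma adjusted p reached 0.0859 (cKO replicate 2), 0.062 (cKO replicate 3), 0.0501, 0.118 and 0.113 (wild type replicates 1, 2 and 3), and after a correction for GC content and length it was 0.0914.

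Mrps17, whose bacterial counterpart binds the ribosomal RNA early in assembly (ENSMUSG00000034211, chr5:129715497-129722556, plus strand), had 13.8, 14.4 and 13.7 FPKM in the cKO testes, against 16.2, 15.8 and 15.5 FPKM in the wild-type testes. The groups did not overlap, and the log2 fold change was -0.18 (SE 0.0443, limma adjusted p = 0.0327). Leaving out any 1 library other than cKO replicate 2 took its limma adjusted p to between 0.0585 and 0.107.

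Mrpl44, a mitochondria-specific protein with a domain related to RNase III (ENSMUSG00000026248, chr1:79776018-79781445, plus strand), had 26.7, 27.6 and 27.0 FPKM in the cKO testes, against 29.5, 30.8 and 30.1 FPKM in the wild-type testes. The groups did not overlap, and the log2 fold change of -0.15 (SE 0.0387, limma adjusted p = 0.0359) was the smallest of the 6. Without any 1 library its limma adjusted p lay between 0.0559 and 0.134, and after the GC and length correction it was 0.144 with a log2 fold change of -0.08. Of its exon bases 7.66% overlap the antisense gene Wdfy1.

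Both subunits had a median below that of all genes, by less than 0.1 on the log2 scale. The 48 large subunit members tested had a median log2 fold change of -0.08 (range -0.28 to 0.16), the 29 small subunit members one of -0.08 (range -0.31 to 0.15) and all genes one of 0.00. Below 0 were 38 large and 19 small subunit members, 74.0% of the members, against 49.5% of all genes. In 24 members all cKO libraries were below all wild-type libraries and in 4 all were above, against 18.2% and 18.8% of all genes. The 4 were Mrps2, Mrps16, Mrps24 and Mrps26, all of the small subunit and none past the test. The 95% interval of the fold change lay within 1.25-fold in either direction for 65 of the 77 members, against 41% of all genes. The members' median level of 20.5 FPKM was above the 5.19 FPKM of all genes tested.

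**Figure D2:**
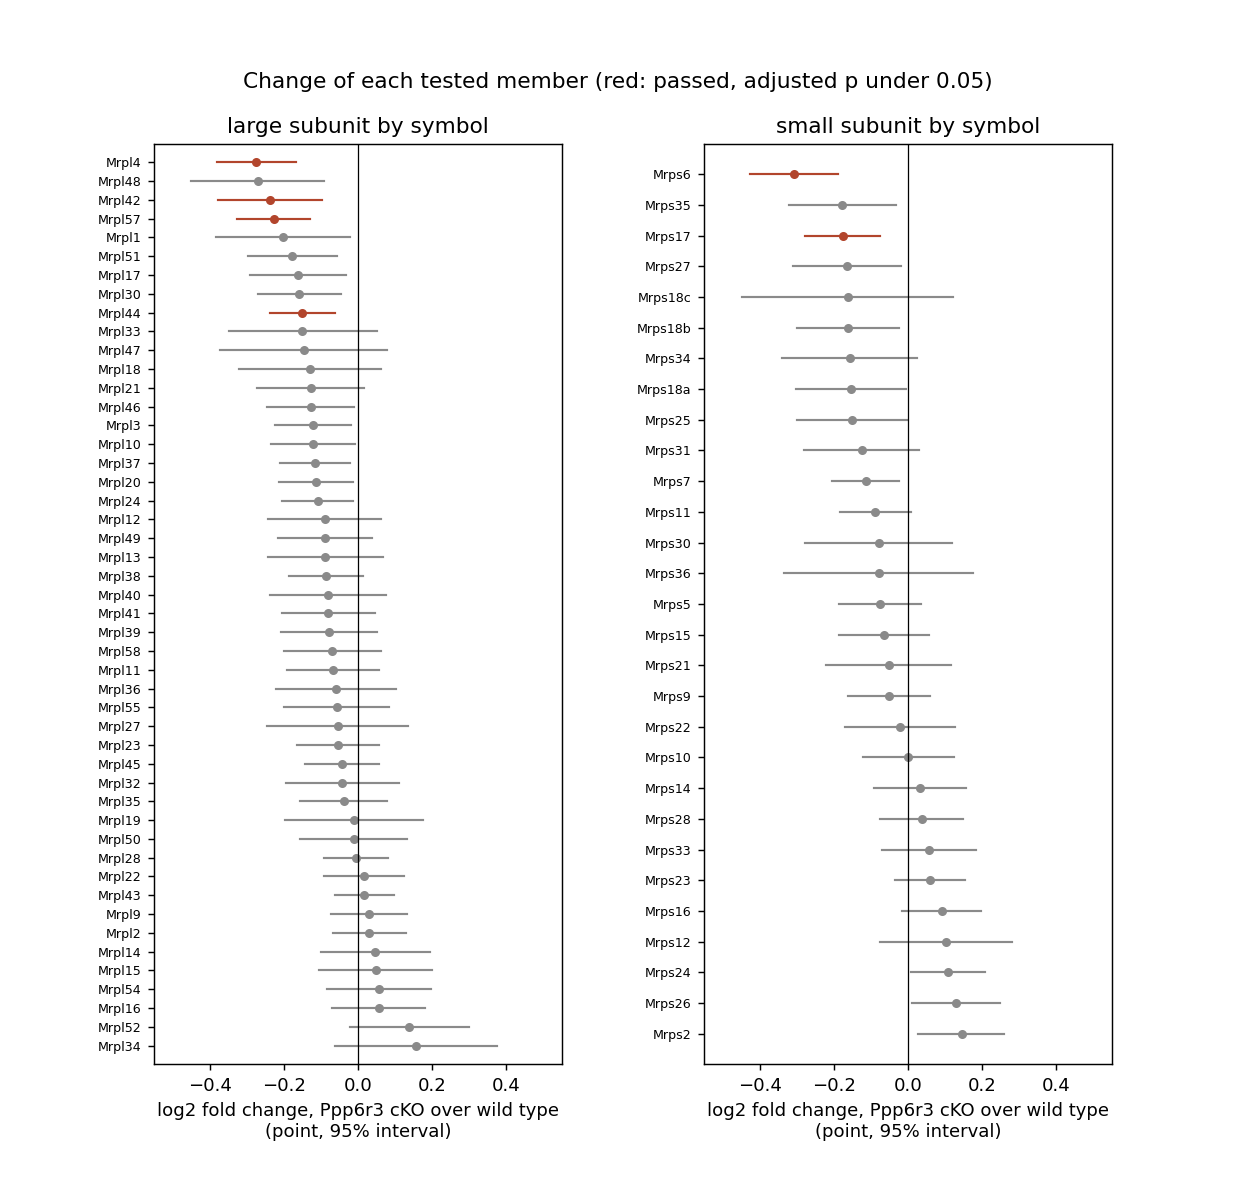
Log2 fold change, cKO over wild type, of the 77 members tested, large and small subunit apart, with 95% intervals from limma. The 6 members that fell are marked, and 57 of the 77 points lie below 0.

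The changes of the members were set against those of all genes in a cumulative plot.

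**Figure D3:**
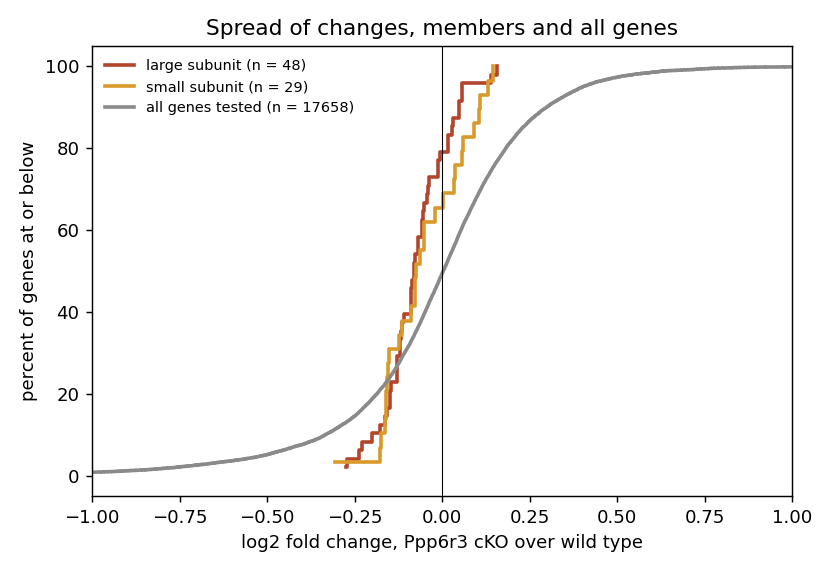
Cumulative share of genes by log2 fold change, cKO over wild type, for large subunit members (48), small subunit members (29) and all genes tested (17658). The member curves are steeper than the curve of all genes, lie to its right at the lowest values and to its left from the middle up, with medians of -0.08 in each subunit and 0.00 over all genes.

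Summed over the subunit, the large subunit members had 1274, 1289 and 1255 FPKM in the cKO testes, against 1326, 1321 and 1301 FPKM in the wild-type testes. The small subunit members summed to 565.3, 560.8 and 563.4 FPKM in the cKO testes, against 588.4, 577.3 and 558.0 FPKM in the wild-type testes. The large subunit sums did not overlap between the groups, while wild type replicate 3 had the lowest small subunit sum of all 6 libraries. The ratio of the large to the small subunit sum was 2.25, 2.30 and 2.23 in cKO and 2.25, 2.29 and 2.33 in wild-type libraries, which overlap. Of the 48 large subunit members 30, 33 and 35 were below their own mean over all libraries in the cKO testes, against 14, 11 and 16 in the wild-type testes. Of the 29 small subunit members 17, 20 and 15 were, against 8, 9 and 16 in the wild-type testes.

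**Figure D4:**
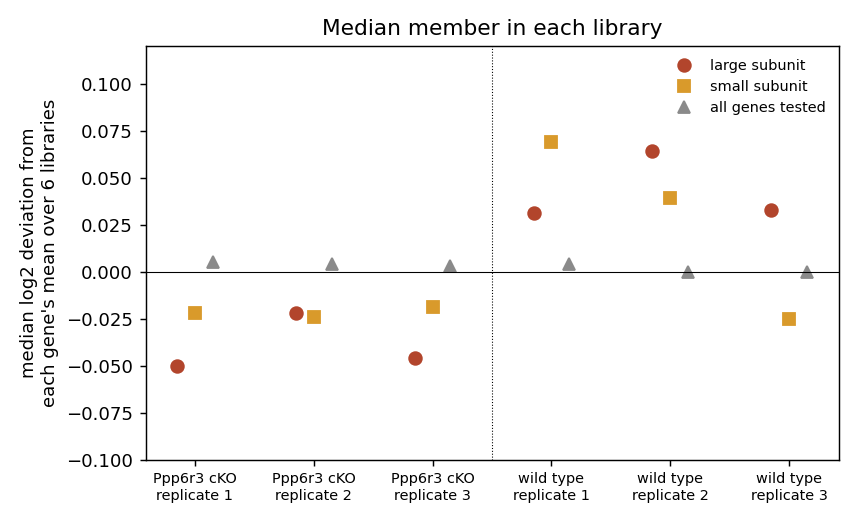
Median deviation of the large and small subunit members from each gene's own mean (log2), with 1 point per library, Ppp6r3 cKO left of wild type, and triangles for all genes tested. The 3 cKO points are below 0 in both subunits. The small subunit point of wild type replicate 3, at -0.025, is below all 3 cKO points.

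GC content moved with library. In cKO replicate 1 the median deviation over all genes ran from -0.11 in the tenth of genes with the lowest GC content to 0.13 in the highest. The members' median GC content was 50.4%, against 50.1% of all genes, and their median exon length 2172 bases, against 3795. After a correction for both in every library, the median log2 fold change was -0.03 in the large and -0.04 in the small subunit, beside 0.02 over all genes. Below 0 were then 47 of the 77 members, still the greater part, where 57 had been before the correction. Of all genes 46.5% were then below 0, against 49.5% before it. With this correction 19% of all genes passed (8.85% fell and 10.2% rose). Then 3 large (Mrpl4, Mrpl48 and Mrpl57) and 2 small subunit members (Mrps6 and Mrps17) fell. The 3 small subunit members that rose were Mrps2 (log2 fold change 0.19, limma adjusted p = 0.0258), Mrps16 (0.15, 0.0424) and Mrps23 (0.13, 0.0373). Without cKO replicate 1 the medians were -0.08 and -0.07, Mrpl34 rose (0.26, limma adjusted p = 0.0391) and Mrps18b fell (-0.22, 0.0329), where 6.34% of all genes rose and 7.23% fell. In 5 equal bins of genes by exon length, shortest to longest, the members' medians were -0.06, -0.10, -0.13, -0.08 and -0.15, against -0.03, -0.02, 0.00, 0.02 and 0.02 over all genes.

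By the proteins' origin, 1 of 30 large subunit members with a bacterial counterpart fell (Mrpl4), with a median log2 fold change of -0.06. Of the 18 tested large subunit members without one 3 fell (Mrpl42, Mrpl44 and Mrpl57), with a median of -0.08. Of the 16 small subunit members with a bacterial counterpart 2 fell (Mrps6 and Mrps17), with a median of -0.05. Of the 10 without one none passed in limma, with a median of -0.14. At an unadjusted p below 0.05, 4 of these 10 were lower and 1 higher in cKO, against 15.6% and 15.8% of all genes tested (31.4% in either direction). At that p, 8 of the 30 and 7 of the 18 large subunit members were lower and 0 higher. Of the 16 small subunit members with a bacterial counterpart 3 were lower and 2 higher. Over all 77 members 23 were lower and 3 higher, so the lower values were not particular to 1 group. Over all genes 7.86% fell at the adjusted threshold, and the counts of the 4 groups were not tested against each other. None of the 77 members rose under the same test. Mrps18a and Mrps30 carry small subunit names but sit in the large subunit, and Mrps36 is now known as a subunit of the oxoglutarate dehydrogenase complex. With these placed so, 4 of 50 large subunit members and 2 of 26 small subunit members fell, with medians of -0.08 and -0.06.

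Among the members that did not pass, the smallest p in the large subunit belonged to Mrpl48 and Mrpl51, both without a bacterial counterpart. Mrpl48 had 5.92, 6.46 and 6.78 FPKM in the cKO testes, against 8.47, 7.36 and 7.37 FPKM in the wild-type testes (log2 fold change -0.27, SE 0.0778, limma adjusted p = 0.0511). Mrpl51 had 14.3, 15.6 and 14.6 FPKM in cKO and 17.6, 16.7 and 16.1 FPKM in wild-type testes (-0.18, limma adjusted p = 0.0579). In both the groups did not overlap. Mrpl48 passed after the GC and length correction (limma adjusted p = 0.0367). With scaling to summed fragments both passed (limma adjusted p = 0.0448 for Mrpl48 and 0.0475 for Mrpl51). With limma-voom on the recovered fragments, which called 23.1% of all genes (11.1% fell), Mrpl48 (adjusted p = 0.00175) and Mrpl51 (0.0201) fell, as did Mrpl17 (0.027), Mrpl30 (0.0374) and Mrps35 (0.0351), while Mrpl44 did not pass (0.0704).

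In the small subunit the smallest p among those that did not pass belonged to Mrps7 and Mrps2, both with bacterial counterparts. Mrps7 had 40.5, 39.5 and 38.6 FPKM in cKO and 42.7, 44.0 and 41.7 FPKM in wild-type testes (log2 fold change -0.11, limma adjusted p = 0.0911). Mrps2 had 18.6, 16.8 and 17.9 FPKM in cKO and 15.7, 15.8 and 16.6 FPKM in wild-type testes (0.15, limma adjusted p = 0.0925). The groups did not overlap in either gene, in opposite directions.

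Mrps18a, Mrps18b and Mrps18c are 3 related proteins, of which Mrps18c is counted here as the counterpart of the bacterial protein, and none passed in limma. Mrps18a had 9.80, 8.70 and 10.2 FPKM in cKO and 10.8, 10.3 and 10.7 FPKM in wild-type testes (log2 fold change -0.15, limma adjusted p = 0.148). Mrps18b had 10.2, 8.99 and 9.17 FPKM in cKO and 10.7, 10.2 and 10.8 FPKM in wild-type testes (-0.16, limma adjusted p = 0.109). Mrps18c had 14.7, 14.4 and 14.3 FPKM in cKO and 19.98, 15.5 and 13.7 FPKM in wild-type testes (-0.16, limma adjusted p = 0.415). For Mrps18c, wild type replicate 1 stood above the rest and replicate 3 below every cKO library. Mrps18b overlaps an antisense gene with 30.5% of its exon bases, and Mrps18c a same-strand gene with 23.2%.

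Members with roles of their own did not pass either. Mrpl12, the stalk protein that recruits translation factors, averaged 26.8 FPKM in cKO and 28.6 FPKM in wild type, with a log2 fold change of -0.09 (limma adjusted p = 0.401). Mrpl58, a peptidyl-tRNA hydrolase that rescues stalled ribosomes, averaged 12.3 FPKM in cKO and 12.9 FPKM in wild type (log2 fold change -0.07). Mrps30 averaged 4.52 and Mrps36 14.1 FPKM in cKO, against 4.79 and 15.04 FPKM in wild type, both with a log2 fold change of -0.08. In all 4 the groups overlapped.

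Levels of the 77 members tested spanned a wide range, 4.17 to 96.5 FPKM in the large subunit (median 26.1, mean over all 6 libraries) and 4.65 to 50.1 FPKM in the small subunit (median 14.9). Mrpl2, near the site where peptide bonds form, stood highest at 97.5 FPKM in cKO and 95.4 FPKM in wild type, and Mrpl28 and Mrpl54 followed, at 66.6 and 57.7 FPKM in cKO and 66.8 and 55.6 FPKM in wild type. In the small subunit Mrps24, Mrps23 and Mrps21 stood highest, at 50.6, 51.1 and 46.2 FPKM in cKO and 47.0, 49.0 and 47.9 FPKM in wild type. These 3 do not keep 1 order in all libraries. Lowest among the tested members were Mrpl32 (4.11 FPKM in cKO, 4.23 FPKM in wild type) and, in the small subunit, Mrps30 and Mrps25 (4.60 and 5.12 FPKM), and 69.8% of the exon bases of Mrps25 are antisense to Nr2c2. None of these members passed in limma. Of 3 markers listed as absent from testis, Myh6 (4.12 FPKM over all libraries) and Ins2 (4.76 FPKM) stood near these lowest levels, and Alb stood at 0.066 FPKM.

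The order of levels depended on the length used. The deposited FPKM of Mrpl11, Mrpl16, Mrpl28, Mrpl43 and Mrpl49 was whole in fragments with a length shorter than the union of their GENCODE M21 exons, and that of the other members tested with the union itself. For Mrpl33 the union has 7326 bases and the longest coding transcript 478 bases. Per kilobase of that transcript, Mrpl33 stood at rank 3 with 81.1, against rank 71 with 5.29 FPKM. Mrpl52 moved to rank 1 with 112.9 (rank 8, 47.1 FPKM) and Mrpl2 to rank 2 with 109.5. The 38 members below the median level had a median log2 fold change of -0.11 and 33 were below 0, and the 39 at or above it had -0.06 and 24.

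**Figure D5:**
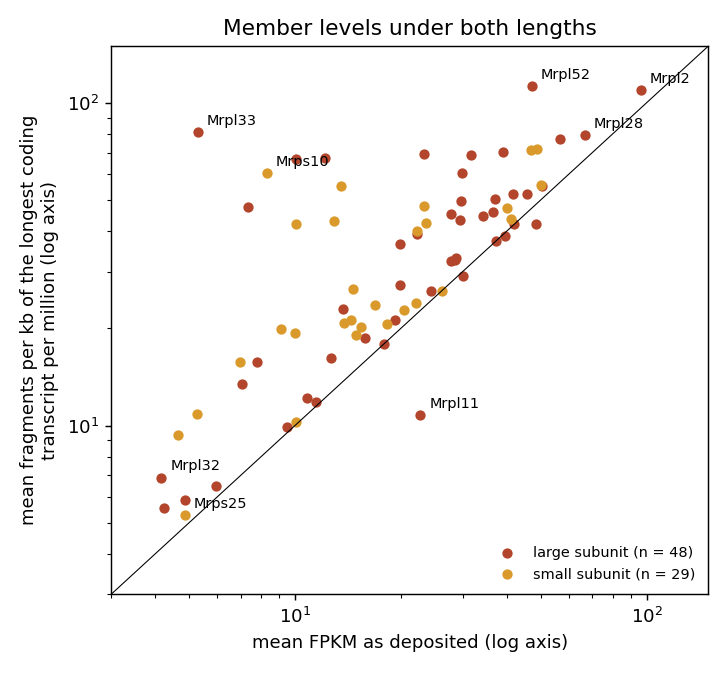
Mean FPKM over all 6 libraries of the 77 members tested (log axis) against the same level per kilobase of the longest coding transcript (log axis). Genes far above the diagonal, such as Mrpl33 (5.29 FPKM, 81.1 per kilobase of transcript), have annotated exons beyond that transcript.

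Genes that act with the mitochondrial ribosome were taken from lists written for the pathway. None of the 5 mitoribosomal proteins with other names passed in limma, with a median log2 fold change of -0.08. Dap3, a GTP-binding small subunit protein, averaged 24.9 ± 1.21 FPKM in cKO and 26.6 ± 0.553 FPKM in wild type, and Chchd1 27.3 ± 3.03 FPKM in cKO and 32.1 ± 3.52 FPKM in wild type (SD, n = 3 each), with log2 fold changes of -0.10 and -0.23 (limma adjusted p = 0.162 for Chchd1). Ptcd3, Aurkaip1 and Gadd45gip1 had log2 fold changes of -0.08, -0.07 and 0.06.

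None of the 26 genes for assembly of the mitochondrial ribosome and modification of its RNA passed in limma, with a median of -0.04 and 18 below 0. The smallest p belonged to Malsu1, which keeps immature large subunits from joining, with 9.69, 10.6 and 9.53 FPKM in cKO and 11.4, 11.1 and 11.0 FPKM in wild-type testes (log2 fold change -0.17, limma adjusted p = 0.0782), and to Mettl17, with 5.73, 6.02 and 5.88 FPKM in cKO and 6.66, 7.09 and 6.36 FPKM in wild-type testes (-0.19, limma adjusted p = 0.0802). The groups did not overlap in either gene. None of the 13 mitochondrial translation factors passed in limma, with a median of -0.08. Gfm2, which splits ribosomes for reuse, had a log2 fold change of -0.26 (limma adjusted p = 0.0827), and Tufm, the factor that delivers tRNA, one of -0.10 (limma adjusted p = 0.104). At an unadjusted p below 0.05 there were 7 assembly genes and 2 translation factors, all lower in cKO, where 31.4% of all genes were below that p (15.6% lower in cKO). Mrm1 passed after the GC and length correction (limma adjusted p = 0.0386) and Gfm2 with limma-voom (adjusted p = 0.00458).

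Of 17 genes for mitochondrial transcription and its nuclear regulators 1 rose and 0 fell, with a median of 0.07. That is 5.88% called, against 15.5% of all genes (7.67% rose and 7.86% fell). Pprc1, a PGC-1-related coactivator, had 22.7, 20.4 and 20.9 FPKM in the cKO testes, against 18.3, 18.5 and 19.1 FPKM in the wild-type testes. The groups did not overlap, and the log2 fold change was 0.19 (SE 0.051, limma adjusted p = 0.0381), which became 0.12 (limma adjusted p = 0.0556) after the GC and length correction. Nrf1, Gabpa and Yy1 averaged 7.35, 13.8 and 19.5 FPKM in cKO and 7.39, 13.5 and 18.5 FPKM in wild type, and did not pass.

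Of 15 mitochondrially encoded genes, which include the products of this ribosome, 5 fell and 0 rose, against 7.86% and 7.67% of all genes, with a median of -0.31. The 5 were mt-Nd1, mt-Nd4, mt-Nd6, mt-Co1 and mt-Cytb. The largest change of the list, in mt-Atp6 (log2 fold change -1.02, SE 0.368, limma adjusted p = 0.137), did not pass, and its groups overlapped. Some genes that enter the median were measured with a wide error. The SE was 0.275 to 0.517 for mt-Co2, mt-Co3, mt-Nd4l, mt-Atp6 and mt-Atp8, against 0.0595 for mt-Co1. For mt-Atp8 a library held only 6 to 14 fragments. The complex I subunit mt-Nd6 had 625, 657 and 741 FPKM in the cKO testes, against 835, 864 and 888 FPKM in the wild-type testes, with no overlap (log2 fold change -0.36, SE 0.0617, limma adjusted p = 0.00844). The complex I subunit mt-Nd4 had 900.3, 739 and 972 FPKM in cKO and 1181, 1176 and 1204 FPKM in wild-type testes (-0.46, limma adjusted p = 0.0163). The median GC content of the 15 genes was 36.0%, against 50.1% of all genes. After the GC and length correction mt-Nd6 alone of the 5 that fell passed (log2 fold change -0.178, limma adjusted p = 0.0108). The corrected log2 fold changes were -0.148 for mt-Nd1 and mt-Co1, -0.206 for mt-Cytb and -0.285 for mt-Nd4. All 5 were smaller falls than before the correction. With limma-voom mt-Nd4 (adjusted p = 0.0566), mt-Co1 (0.0588) and mt-Cytb (0.0573) did not pass. Of the 5, only mt-Nd6 lies on the minus strand, and the strand setting of the counting is not given, so how well it was measured is not known. The ribosomal RNAs mt-Rnr1 and mt-Rnr2 did not pass, and libraries of polyadenylated RNA measure them poorly.

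Markers of the cells of the testis moved with genotype beside these results. Summed germ cell markers, of which 2 of 3 fell, stood at 238.6 to 271.8 FPKM in cKO and 288.6 to 307.0 FPKM in wild-type libraries. Undifferentiated spermatogonia markers, of which 3 of 5 tested rose, stood at 36.8 to 39.8 FPKM in cKO and 27.4 to 30.1 FPKM in wild type. Sertoli markers, of which 1 of 4 rose, stood at 223.4 to 248.7 FPKM in cKO and 203.3 to 203.7 FPKM in wild type. The 1 was Amh, at a mean of 128.6 FPKM in cKO and 99.8 FPKM in wild type. Sox9 (log2 fold change 0.02) and Dhh (0.14) did not pass. Wt1 did not pass either and was lower in every cKO library (-0.09), so the sum does not describe each marker. Leydig markers, of which 1 of 4 rose, stood at 165.0 to 167.4 FPKM in cKO and 143.4 to 148.4 FPKM in wild type. The 1 was Hsd3b1, at a mean of 122.7 FPKM in cKO and 103.3 FPKM in wild type. Cyp11a1 (log2 fold change 0.06) and Star (0.14) did not pass. Insl3 did not pass either and was lower in every cKO library (-0.10). Myoid markers, of which 1 of 2 fell, stood at 481.4 to 510.6 FPKM in cKO and 571.6 to 597.6 FPKM in wild type. The 3 erythroid markers fell, at 177.7 to 203.8 FPKM in cKO and 288.9 to 327.0 FPKM in wild type. None of these markers was at 0 in every library. Their part in the shifts of the mitochondrial ribosomal protein genes was not tested.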

How the data were processed

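Total RNA was extracted with Trizol and polyadenylated RNA was made into libraries with a stranded KAPA kit, per the labels' protocols. Per the submitters' processing notes, HISAT2, mm10 and DESeq2 were used, and the counting tool, its strand setting and the annotation release are not given in the sources used here. Reads of overlapping, antisense and near-identical genes may therefore be mixed. The deposited table is named for raw counts but its values, as deposited by the authors, are FPKM. Times the GENCODE M21 exon length they were whole multiples of 1 step per library, within 0.01 fragments, for 31625 of 32589 genes above 0 (97.04%), and the other 964, of which 910 lie on chromosomes 17, 18 and 19, were whole with another length. Median-ratio factors of the deposited FPKM were equal in all 6 libraries (1.00373 each), so the values already carry such a scaling. Libraries of 1 group differed by more than the noise of sampling, with a chi-square of 2.19 to 4.26 per degree of freedom.

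All genes with at least 10 fragments in at least 3 libraries (17658) were fitted with limma 3.58.1 in R 4.3.3 on log2(FPKM + 0.1), with trend and robust moderation, no covariates, and Benjamini-Hochberg adjustment over all of them, at a threshold of 0.05. Intervals are 95% intervals from the moderated statistic. The script was tested on simulated data. Alternatives were voom on the recovered fragments, other scalings, filters and pseudocounts, no robust moderation, a replicate block, a GC and length correction (splines, 5 degrees of freedom), a threshold of 0.01 and leaving out each library. The members and gene lists were chosen with earlier results of these data known. Genes named are Ppp6r3, the members that passed, in each subunit the 2 of smallest p among the rest, the 3 of highest and the 2 of lowest level, members with particular roles, and of each other list those passing or of smallest p. Mrpl17, Mrpl30, Mrpl33, Mrpl34, Mrpl52, Mrps16, Mrps26 and Mrps35, and Nrf1, Gabpa and Yy1, were named after their values were seen. Promoter sequences are RefSeq's on GRCm38.p6.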

Additional observations from a re-analysis of the deposited data

How the results depend on the processing

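Over the 39 tested genes chosen by the naming rule, 657 values under an alternative kept their direction and their side of the threshold, 58 no longer passed and 12 newly passed. The other 14 changed sign, all in members that did not pass either way. Some alternatives could not change a direction, so the count of 657 overstates stability. Median-ratio scaling, with equal factors in all libraries, nearly repeats the main fit. The replicate block, the robust moderation, the filters and the threshold leave each log2 fold change as it was. After the GC and length correction, with or without the replicate block, the log2 fold change was 0.013 for Mrpl28, 0.008 for Mrpl32, 0.020 for Mrps21 and 0.030 for Mrps36. Leaving out 1 library gave -0.004 to 0.113 for Mrpl54, -0.023 to 0.015 for Mrpl28, -0.100 to 0.021 for Mrps21, -0.131 to 0.004 for Mrps30 and -0.208 to 0.015 for Mrps36. All genes called (2743) became 1508 without a filter on low values and 889 at a threshold of 0.01, and leaving out 1 library gave 1242 to 2396. The large subunit count (4) became 7 with voom, 2 without the filter and 1 at the threshold of 0.01, and the small subunit count (2) became 1 without the filter, 5 after the GC and length correction and 1 at the threshold of 0.01. Leaving out 1 library gave 1 to 4 large and 1 to 2 small subunit members. The median log2 fold change became -0.026 in the large and -0.038 in the small subunit after the GC and length correction. Adding the replicate block cannot change these medians, since each number holds 1 library of each group. Leaving out 1 library gave medians of -0.085 to -0.071 in the large and -0.096 to -0.041 in the small subunit, the last without wild type replicate 1. The cause was not tested. With the replicate block 2197 genes, 2 large and 1 small subunit members were called, and with the block and the GC and length correction 2415, 1 and 3. Deviations from the group means had correlations of -0.0073, -0.0045 and 0.014 between same-numbered libraries, and of -0.023 to 0.027 between the others. With 3 libraries per group these values cannot settle whether the numbers pair the libraries. Scaling to summed fragments and the order of levels by transcript length were added after the data were seen, and that scaling called 2795 genes. The 3 libraries per group limit changes as small as most of those described here.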

Other observations

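The table also lists 5 processed pseudogenes of these genes, and a split of reads between near-identical copies was not tested. Mrpl23-ps1 had 2.52, 2.59 and 2.35 FPKM in the cKO testes, against 3.32, 2.81 and 4.97 FPKM in the wild-type testes (log2 fold change -0.51, limma adjusted p = 0.103), and the groups did not overlap. Mrpl48-ps averaged 1.91 FPKM in cKO and 1.89 FPKM in wild type (log2 fold change 0.04). Mrps36-ps1 and Mrps36-ps2 were too low to be tested and Mrps36-ps3 was listed at 0 in every library. Of the members, 8 share exon bases with a gene on the same strand and 28 with one on the opposite strand.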
